A study of Bos taurus with 20 samples.

Results

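The genes of the mitochondrial respiratory chain were compared between 5 groups of bovine ovarian samples. These were cells of the theca (TH), granulosa (GC) and cumulus (CC), oocytes (OO), and CC from complexes matured in vitro (IVM) for 4 h. Each group had 4 arrays and came from follicles of 3 to 6 mm on ovaries collected after slaughter. TH had been scraped from the follicle wall, whereas GC and the cumulus-oocyte complexes came from punctured follicles. TH, GC, CC and OO were at the immature stage, and the CC after IVM had been detached from their complexes at 4 h. The labels gave no genotype, breed or age, and no treatment other than the IVM. Genes were taken by name from the array annotation: those starting with NDUFA, NDUFB, NDUFC, NDUFS, NDUFV, SDH, UQCR or ATP5, and COX followed by a digit from 4 to 8. The rule found 92 of the 22550 genes or transcripts of the array, measured by 236 probes. They comprised 37 genes of complex I, 4 of complex II, 8 of complex III, 17 of complex IV, 15 of the ATP synthase and 11 that carry such a name but act in assembly or are otherwise no core subunit (NDUFAF1, 2, 3, 4, 6 and 7, SDHAF1, SDHAF2, ATP5S, ATP5SL and COX7A2L). The names are those of the array design, so that ATP5A1 is the gene now called ATP5F1A and ATP5S the gene now called DMAC2L.

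The respiratory chain lies in the inner mitochondrial membrane. Complexes I and II pass electrons from NADH and succinate to ubiquinone, complex III passes them on to cytochrome c, complex IV reduces oxygen, and the ATP synthase uses the resulting proton gradient to make ATP. Complexes I, III, IV and the ATP synthase each combine subunits from nuclear genes with subunits from the mitochondrial genome, while complex II is wholly nuclear encoded. The oocyte carries a large store of mitochondria for the embryo, and cumulus cells supply it with pyruvate.

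Levels below are log2 signals relative to the 75th percentile of the array, so that 0 is the level of a probe at that percentile. Differences are differences of such log2 levels, where 1 is a doubling, with the standard error of the fit. Adjusted p-values are from limma with Benjamini-Hochberg adjustment over all 22550 genes, and a gene is called at an adjusted p under 0.05. The signal at the 75th percentile was 1521 to 2889 units on the OO arrays and 284 to 1101 on the other 16, and a level is therefore relative to the other RNA of the sample and no amount per cell. In such bulk samples, fewer cells of a type and less RNA per cell cannot be told apart. Between 54.2 and 62.8% of probes were well above background on the arrays of TH, GC, CC and CC after IVM, and 49.3 to 68.8% on those of OO, with OO replicate 2 the lowest. The arrays of the cell types lay on 2 slides (replicates 1 and 2 on slide 1, replicates 3 and 4 on slide 2), and all 4 arrays of CC after IVM on slide 3. Of the marker genes, all 4 for theca were highest in TH, all 6 for the oocyte in OO, and all 4 for granulosa and cumulus cells in CC among the 4 immature cell types. One array stood apart for the genes described here: the median level of the 92 genes was 4.56 on CC after IVM replicate 1 and 3.78 to 3.88 on the other 3 arrays of that group, against 3.61 to 3.84 on the CC arrays.

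Of the 92 genes, 87 were well above background on all 20 arrays. Each was measured by at least 2 distinct probe sequences, and none of the 199 distinct sequences was also listed under a gene outside the set. The probes were 60 bases long. The stretches shown here, of 30 bases each, identify the probes behind the results that differ most between groups or between probes of a gene. They are read 5′ to 3′ as deposited, the positions are those of the transcript on the UMD 3.1 assembly, and the strand was not given. COX4I2 (chr13:61745578-61750870) is the alternative form of a complex IV subunit, and its probes overlap by 10 bases, shown in capitals:
COX4I2 probe 1: tcttctgtggattcacaggtCTGCTGATTT
COX4I2 probe 2: CTGCTGATTTggtggcagcgggtctatgtg
NDUFA4L2 (chr5:56537021-56539323), a relative of the complex IV subunit NDUFA4 that is known as a hypoxia target, had 1 probe above background in every group and 1 in CC but not in TH, GC or OO:
NDUFA4L2 probe 1: tccttgcagtttccactgactacaagaaac
NDUFA4L2 probe 2: ctcccctacttccctcggtccccagggatc
The assembly factors NDUFAF7 (chr11:19683131-19699850) and NDUFAF4 (chr9:53673441-53682097) had the largest rises in OO:
NDUFAF7 probe 1: ccatacagtaccactggaagttgatctttt
NDUFAF7 probe 2: accatacagtaccactggaagttgatcttt
NDUFAF4 probe 1: gatggctgataggattgacttttctctctg
NDUFAF4 probe 2: ccggaaggcaagaaagcaatagaatcaaaa
The probes of NDUFAF7 start 1 base apart and are nearly the same measurement. UQCR11 (chr7:45592773-45595693), a small subunit of complex III, and ATP5G2 (chr5:26535464-26539249), which encodes the membrane-ring subunit c of the ATP synthase, had the largest falls:
UQCR11 probe 1: aagaaggatgactagactcacaacctcagg
UQCR11 probe 2: tttcctcttttggtggaaataacttttgtg
ATP5G2 probe 1: gaaggagccgtttccacctcccatagttct
ATP5G2 probe 2: aacctggggaaagtagttggctcagggctt

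Most of the chain was lower in the oocyte, while 7 complex I genes and 6 of the 11 assembly and related genes were higher. Relative to the somatic mean, which averages TH, GC and CC, 62 of the 92 genes were lower in OO and 14 were higher. Over all genes of the array 38.3% were lower and 32.9% higher, and among the 10012 genes well above background on all 16 arrays the shares were 38.3% and 45.1%. The median difference of the 92 genes was -1.04, against -0.52 over all genes and 0.19 over those 10012. In all, 75 genes differed among the 4 cell types by the F-test (background 71.3%). In 54 genes OO was lower than each of TH, GC and CC (background 24.4%), and in 11 it was higher than each (background 26.6%). The values on every array are shown in the heat map of 91 of the genes, where OO differs from the rest in most rows of complexes II to IV and the ATP synthase.

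**Figure D1:**
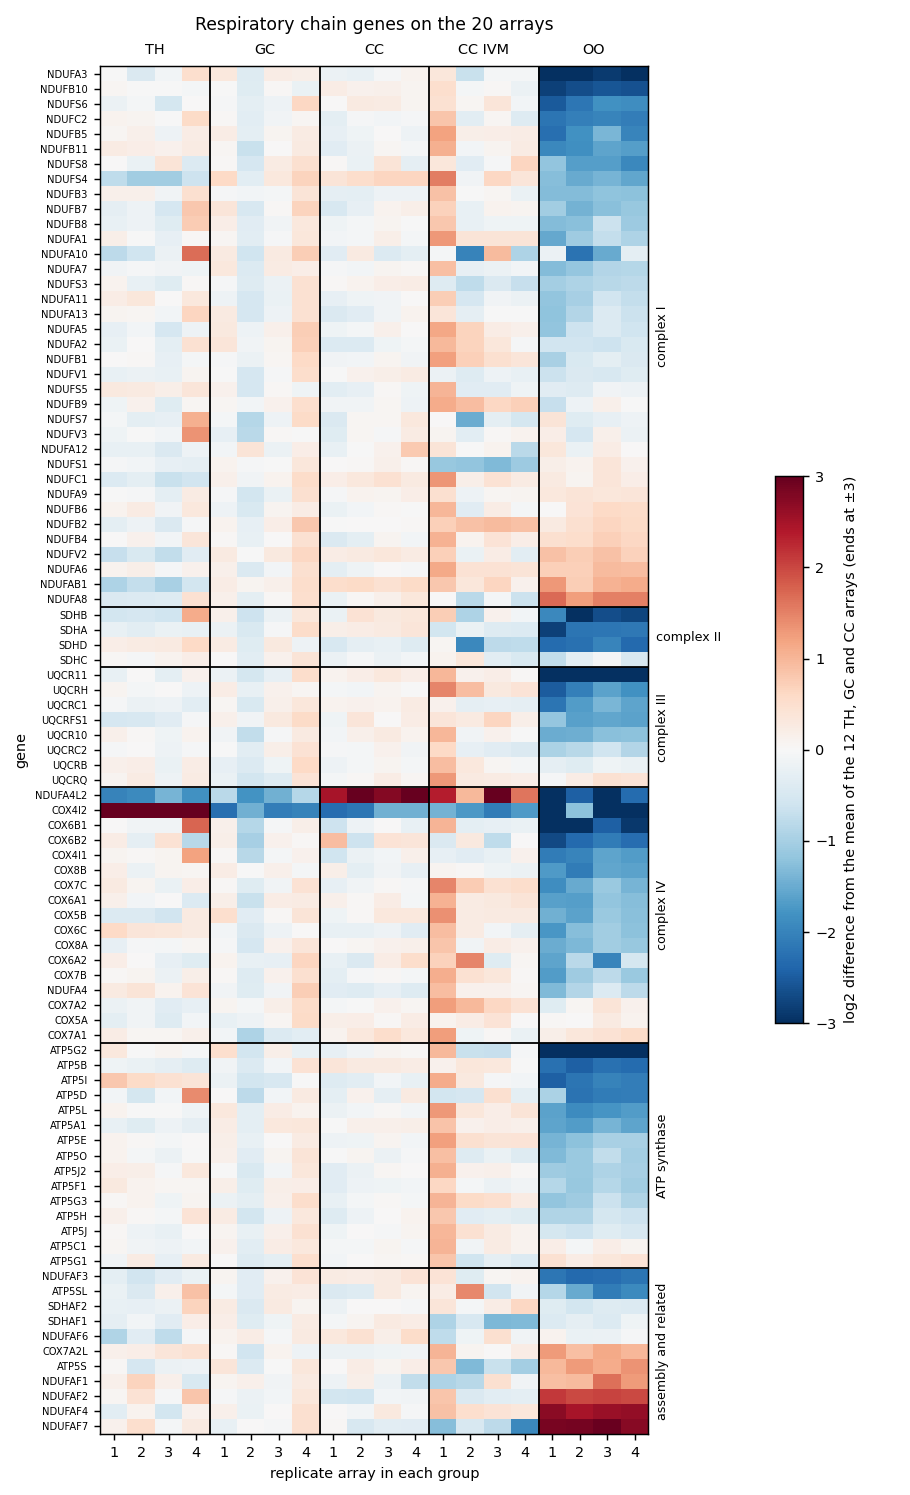
Each row is 1 of 91 genes and each column an array, grouped as TH, GC, CC, CC after IVM and OO with replicates 1 to 4. Colour gives the log2 difference from the mean of the 12 TH, GC and CC arrays, and colours end at 3 in either direction. The OO columns are blue for 61 genes called lower and red for 14 called higher, and replicate 1 of CC after IVM is redder than the other 3 arrays of its group.

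The way arrays were put on one scale changed some of these calls. Of the 76 called genes, 74 were called in the same direction after quantile normalization, 69 after scaling to the array median, 73 after scaling to probes detected on all arrays and 74 after another background correction. With the deposited log2 table, which takes the median spot signal without background subtraction and centres it on the array median, 47 genes were lower and 24 higher. There 60 of the 76 calls held, and 6 genes changed sign without being called (ATP5J, NDUFA2, NDUFB1, NDUFV1, SDHAF2 and SDHC). Scaling to the array median gave 55 lower and 19 higher. The set's median lay below the median of all genes by 0.52 here and by 0.85 after quantile normalization, but above it by 0.38 with the other background correction and by 0.24 with the deposited table, so the shift against all genes has no settled direction. Within slide 1, 56 genes were lower and 11 higher, and within slide 2, 55 and 12. Without OO replicate 2, the counts were 60 and 15.

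**Figure D2:**
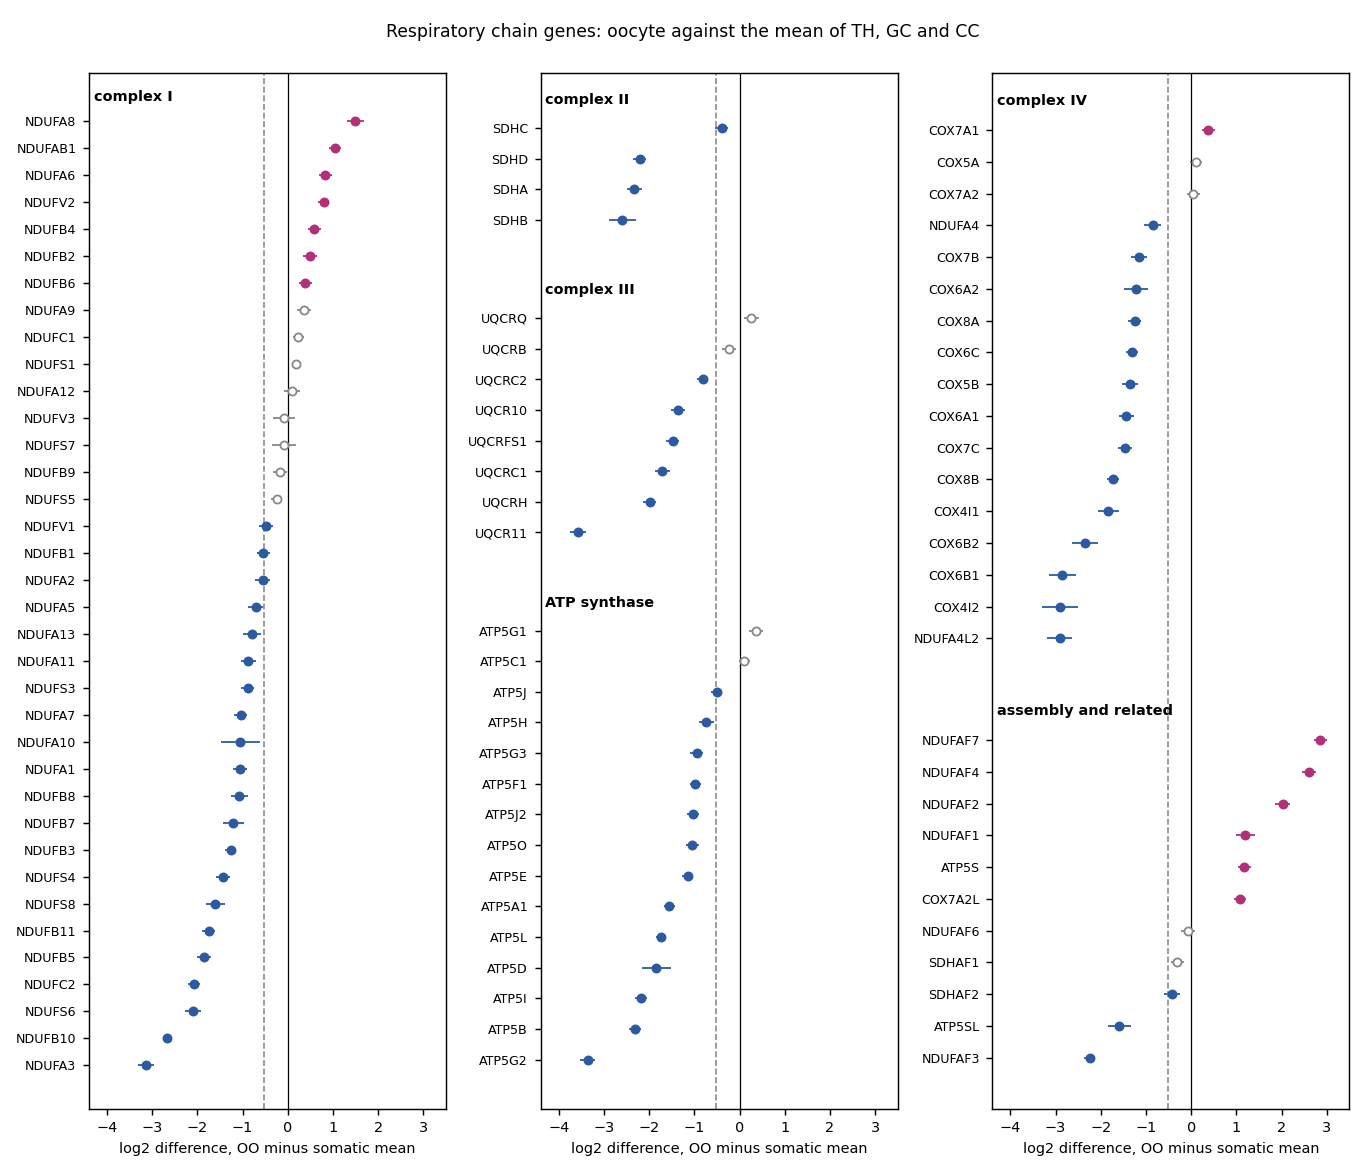
Points are the log2 difference of each of 91 genes, OO minus the somatic mean, with the standard error, sorted within each complex. Filled blue points are called lower, filled red points called higher, open points not called, and the dashed line is the median of all genes at -0.52. All 4 genes of complex II and 13 of 15 of the ATP synthase are called lower, while 6 of the 11 assembly and related genes are called higher.

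Complex I takes electrons from NADH and is the largest of the complexes. Of its 37 genes, 22 were lower in OO, 7 were higher and 8 were not called, with a median difference of -0.71 and a range from -3.13 to 1.49. The largest falls were in NDUFA3 and NDUFB10, small accessory subunits of the membrane part. NDUFA3 was at 0.94, 0.97, 1.41 and 1.31 on the OO arrays and at 3.87 to 4.79, with a median of 4.27, on the 12 somatic arrays. NDUFB10 was at 2.61, 2.74, 2.84 and 2.79 in OO and at 5.04 to 5.64, with a median of 5.43, in the somatic cells. The ranges did not overlap for either gene, and the differences were -3.13 ± 0.17 for NDUFA3 (adjusted p = 1.3e-10) and -2.66 ± 0.11 for NDUFB10 (adjusted p = 2.7e-12). Subunits of the catalytic core differed among themselves. NDUFS8 was lower by a difference of -1.60 ± 0.20. NDUFV1, which binds the flavin and NADH, was lower by a difference of -0.49 ± 0.15 (adjusted p = 0.0097), although it turned to 0.15 with the deposited table. NDUFS1, the largest subunit of the NADH-oxidizing arm, gave 0.19 ± 0.11 and was not called (adjusted p = 0.12). NDUFA5 lay at the median of the complex with -0.71 ± 0.17.

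The 7 complex I genes higher in OO were NDUFA8, NDUFAB1, NDUFA6, NDUFV2, NDUFB4, NDUFB2 and NDUFB6. NDUFA8 was at 3.74, 3.31, 3.55 and 3.56 on the OO arrays and at 1.61 to 2.56 on the somatic ones, a difference of 1.49 ± 0.18 (2.82-fold, adjusted p = 2.1e-06). NDUFAB1, the mitochondrial acyl carrier protein that also serves fatty acid synthesis and iron-sulfur cluster assembly, was at 6.87, 6.31, 6.63 and 6.68 in OO and at 4.61 to 6.16 in the somatic cells, a difference of 1.04 ± 0.13. NDUFA6, which like NDUFAB1 sits in the matrix arm and contacts it, differed by 0.83 ± 0.14, and NDUFV2, an iron-sulfur subunit beside NDUFV1, by 0.80 ± 0.13. In all 4 of these genes no OO array fell within the somatic range. The differences of NDUFB4 (0.58 ± 0.14), NDUFB2 (0.49 ± 0.16) and NDUFB6 (0.39 ± 0.15) were smaller. Only the dimmer probe of NDUFB4 was called (1.00 ± 0.17), and its brighter probe gave 0.17 ± 0.13 (adjusted p = 0.26). In NDUFB6 probe 1 was not called (0.29 ± 0.16, adjusted p = 0.11) and probe 2 gave 0.49 ± 0.14.

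Of the 6 factors named for the assembly of complex I, 4 were called higher in OO and 1 lower, where 32.9% of all genes, and 45.1% of those above background on all 16 arrays, were higher. NDUFAF7, a methyltransferase that acts during assembly, was at 0.26, 0.29, 0.39 and 0.14 in OO and at -3.06 to -2.08, with a median of -2.59, on the somatic arrays. The difference was 2.86 ± 0.15, or 7.25-fold (adjusted p = 5.9e-11). NDUFAF4 was at 2.03, 1.80, 1.90 and 1.95 in OO and at -1.23 to -0.20 in the somatic cells, a difference of 2.60 ± 0.15 or 6.07-fold. NDUFAF2, a relative of the subunit NDUFA12, was at 1.76, 1.62, 1.66 and 1.62 in OO against -0.95 to 0.47, a difference of 2.03 ± 0.17. All OO arrays of these 3 genes lay above all somatic arrays. NDUFAF1 was dim everywhere: it was well above background on 3 OO arrays, 1 TH array and no array of GC or CC. With the reported background, its mean over the OO arrays, not all of them above background, was 1.35-fold above the bound for GC. It was 1.75-fold above the bound for CC. The fitted difference of 1.20 ± 0.20 turned to -0.65 after the other background correction and was called in that direction too, so its direction is not settled. NDUFAF3 went the opposite way with -2.25 ± 0.13, and NDUFAF6 was not called (-0.08 ± 0.15). Of the others in this group, COX7A2L, which joins complexes III and IV into supercomplexes, rose by 1.08 ± 0.13, and ATP5S by 1.18 ± 0.15. The ATP5S value averages probe 1, at 1.86 ± 0.16, with the brighter probe 2, at 0.49 ± 0.16. SDHAF2 gave -0.43 ± 0.17 (adjusted p = 0.035) and ATP5SL -1.59 ± 0.25. The latter averages probe 1 of ATP5SL, at -3.42 ± 0.27 and above background on all somatic and 3 OO arrays, with probe 2, at 0.24 ± 0.35 and above background on 1 OO array alone. SDHAF1, which helps insert iron-sulfur clusters into SDHB, gave -0.31 ± 0.14 and was not called.

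Complex II, or succinate dehydrogenase, is shared by the respiratory chain and the citric acid cycle. All 4 genes were lower in OO. The flavoprotein SDHA was at 2.80, 3.41, 3.45 and 3.46 in OO and at 5.16 to 6.17 in the somatic cells, a difference of -2.33 ± 0.17 or 5.04-fold. The iron-sulfur subunit SDHB was at 0.21, -0.92, -0.53 and -0.61 against 1.51 to 3.24, a difference of -2.60 ± 0.30. The membrane anchor SDHD was at -2.35, -2.27, -2.01 and -2.36 against -0.52 to 0.57, a difference of -2.21 ± 0.14. The other anchor, SDHC, was at 2.57, 3.02, 3.26 and 2.84 against 2.99 to 3.70, and its ranges overlapped. Its difference was -0.40 ± 0.14 (adjusted p = 0.022), and with the deposited table it turned to 0.26 without being called. All 4 probes of SDHC gave differences between -0.45 and -0.37, and whether SDHC differs from the other subunits was not tested.

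Complex III had 6 of 8 genes lower in OO and none higher, with a median difference of -1.42. UQCR11 had the largest fall of all 92 genes. It was at 0.50, 0.96, 1.38 and 1.06 in OO and at 4.03 to 5.08, with a median of 4.61, on the somatic arrays, a difference of -3.58 ± 0.18 or 11.96-fold (adjusted p = 5.3e-11). The hinge protein gene UQCRH differed by -1.99 ± 0.14, the core proteins UQCRC1 and UQCRC2 by -1.71 ± 0.16 and -0.82 ± 0.13, the Rieske iron-sulfur protein UQCRFS1 by -1.48 ± 0.15, and UQCR10, nearest to the median, by -1.36 ± 0.15. The small subunits UQCRB (-0.24 ± 0.16) and UQCRQ (0.26 ± 0.16) were not called. CYC1, the cytochrome c1 of this complex, was outside the name rule and differed by -1.78 ± 0.14. Cytochrome c itself (CYCS), which carries electrons to complex IV, was higher by 1.28 ± 0.27, though its OO arrays, at 2.18 to 2.29, lay within the GC range of 0.60 to 2.47.

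Complex IV had 14 of 17 genes lower, COX7A1 higher by 0.37 ± 0.14 (adjusted p = 0.029), and COX5A and COX7A2 not called. Several of its nuclear subunits exist in pairs, a widely expressed form and one known from certain tissues. COX4I1, the common form of subunit 4, was at 1.85 to 2.38 in OO and fell by 1.83 ± 0.23. Its probes had OO means of 3.94, 0.30, -8.18 and 4.08, the dimmest above background on no array, so the gene level lies between probes. COX6A1 fell by 1.44 ± 0.17, and its muscle and heart form COX6A2, above background on all TH, GC and CC arrays but on 1 OO array, gave -1.22 ± 0.26, a size that is not exact. Its probe 1 was above background on no array of these groups, and its probe 2 gave -1.73 ± 0.42. COX6B1 was at -3.26, -3.33, -2.70 and -3.16 in OO against -1.12 to 1.48, a difference of -2.85 ± 0.30, and its testis form COX6B2 differed by -2.35 ± 0.29. Subunit 8 showed the same in both forms, with -1.25 ± 0.14 for COX8A and -1.74 ± 0.13 for COX8B. COX6B1 and COX8A were listed only at short spans of the genome, given below, which limits the comparison of forms. In subunit 7A the forms did not fall together: COX7A1 was at 3.89 to 4.26 in OO, within the somatic range of 2.78 to 4.25 apart from 1 array, and COX7A2 had a difference of 0.05 ± 0.14 (adjusted p = 0.76). COX7B, COX7C, COX5B and COX6C fell by 1.16 ± 0.17, 1.47 ± 0.16, 1.36 ± 0.18 and 1.32 ± 0.13. NDUFA4, once counted with complex I and now with complex IV, fell by 0.85 ± 0.19. This value averages probe 1 of NDUFA4, at -0.34 ± 0.21 and not called, with probe 2, at -1.36 ± 0.17.

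The ATP synthase had 13 of 15 genes lower and none higher, with a median difference of -1.05. The catalytic subunits ATP5A1 (alpha) and ATP5B (beta) fell by 1.56 ± 0.13 and 2.30 ± 0.13. ATP5I, a membrane subunit linked to dimers of the enzyme, fell by 2.18 ± 0.14, and ATP5O of the peripheral stalk, nearest to the median, by 1.05 ± 0.14. Subunit c is encoded by 3 genes with the same mature protein. ATP5G2 was at 3.35, 3.48, 3.80 and 3.71 in OO and at 6.38 to 7.45 in the somatic cells, and fell by 3.36 ± 0.17 or 10.3-fold. ATP5G3 (chr2:21702150-21705260) fell by 0.95 ± 0.15, with OO arrays at 4.31 to 4.85 and somatic arrays at 5.21 to 6.03. ATP5G1 (chr19:38253561-38255681) was not called with 0.36 ± 0.16 (adjusted p = 0.053), and all 4 of its OO arrays, at 5.17 to 5.41, lay within the somatic range of 4.56 to 5.46. Taken singly, its probe 2 was called higher (0.37 ± 0.15, adjusted p = 0.044) and its probe 1 was not (0.34 ± 0.16, adjusted p = 0.081). The gamma subunit ATP5C1 was the other gene not called (0.10 ± 0.12). Probe 1 of ATP5G1 and probe 1 of ATP5G3 were:
ATP5G1 probe 1: tccaggccatgcccggtgctggagtgtgct
ATP5G3 probe 1: gactccgaaaactatagtgttggtgtcatg

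**Figure D3:**
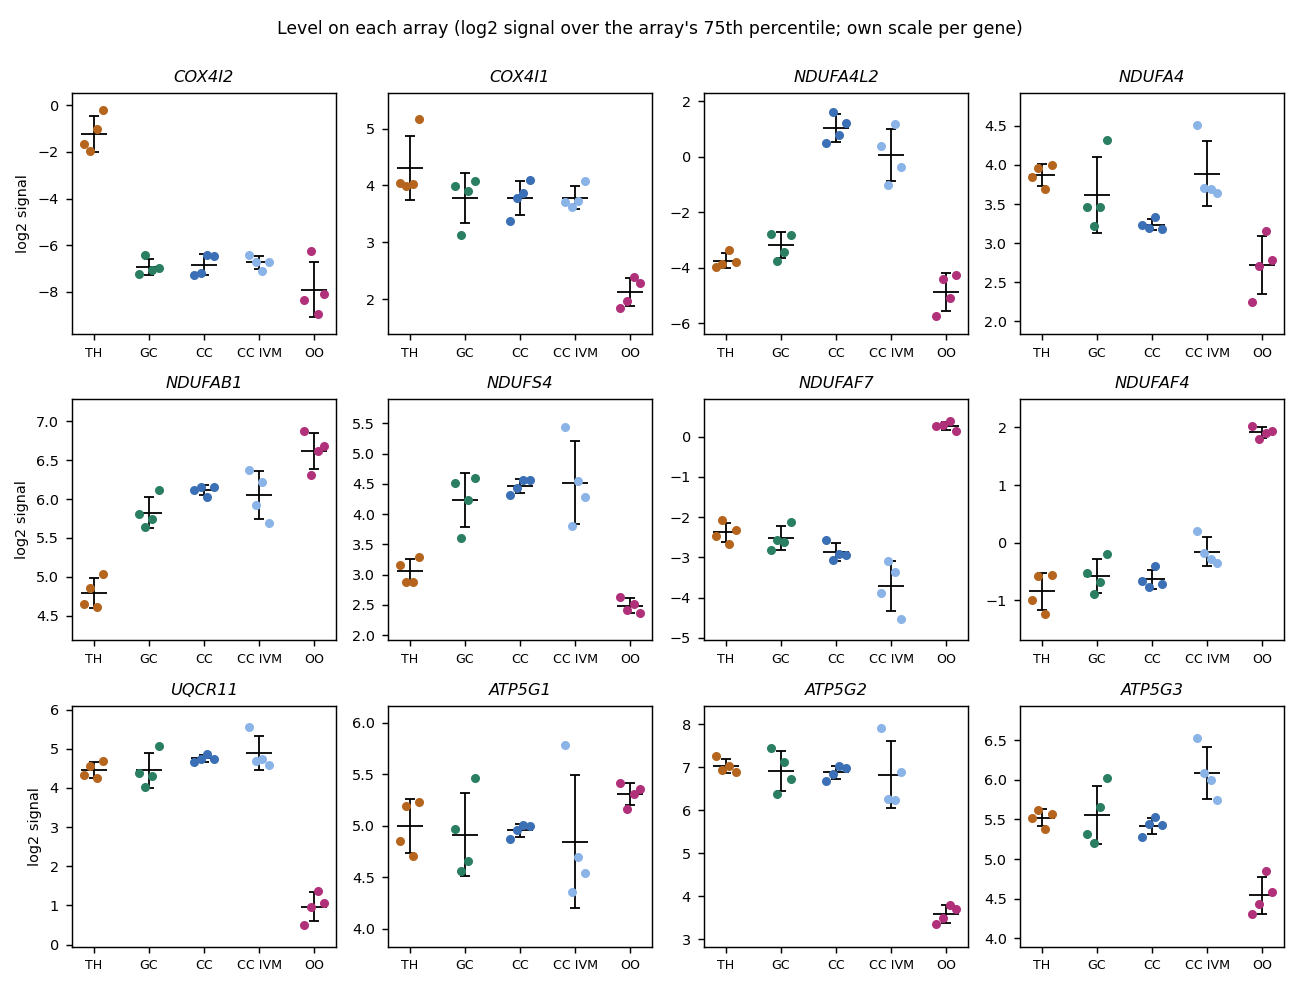
Each panel shows a gene, each point an array, and the bars the mean and SD of 4 arrays per group, with the vertical axis the log2 signal over the 75th percentile of the array on a scale of its own per panel. COX4I2 is high in TH alone, NDUFA4L2 highest in CC with and without IVM, NDUFAB1 and NDUFS4 lowest among the somatic cells in TH, NDUFAF7 and NDUFAF4 high in OO, and UQCR11 and ATP5G2 far lower in OO, whereas ATP5G1 in OO stays within the somatic range.

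Fewer of these genes were called between the 3 somatic cell types, with the largest differences in COX4I2 and NDUFA4L2. Between TH and GC, 4 genes were higher in TH (background 11.8%) and 6 lower (background 14.5%). Between TH and CC, 8 were higher in TH (background 14.4%) and 8 lower (background 17.4%). Between GC and CC, none was higher in GC (background 4.61%) and 2 were lower (background 5.28%). With 2 arrays per group, slide 1 gave 1, 4 and 1 called genes for TH-GC, TH-CC and GC-CC, and slide 2 gave 5, 5 and 1. Without TH replicate 1 the TH-GC count was 6 in place of 10, and scaling to probes detected on all arrays raised the TH-CC count from 16 to 28.

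COX4I2 was found in TH. It was at -1.68, -1.97, -1.04 and -0.22 on the TH arrays and at -7.28 to -6.43 on the 8 arrays of GC and CC, where no array was well above background. None of the arrays of OO or CC after IVM was above background either. The level in TH was at least 13.99-fold higher than in GC, 18.2-fold higher than in CC and 25.5-fold higher than in OO, with fitted differences of 5.71 ± 0.49 from GC (adjusted p = 5.5e-07) and 5.61 ± 0.49 from CC (adjusted p = 3.6e-07). Both probes were above background on all 4 TH arrays and on none of GC, CC or OO. The OO difference of -2.90 ± 0.40 for this gene is against a mean that includes TH, and against GC and CC both sides were below background. The common form COX4I1 was not called between TH and GC (0.53 ± 0.28, adjusted p = 0.20). All 7 markers of pericytes and smooth muscle were above background on at least 3 TH arrays. Of these, 6 were highest in TH among the immature groups, as were all 4 theca markers. The summed level of the 7 (linear, with the 75th percentile as 1) was 172 to 190 in TH, 4.02 to 17.5 in GC and 1.59 to 2.63 in CC. Most of the TH sum came from ACTA2, at 7.26 to 7.50 in TH. ACTA2 was also above background on all 4 GC arrays, at 1.01 to 3.90. CSPG4 had a mean of -1.97 in both TH and CC. RGS5, a defining pericyte marker, was at 0.10 to 0.87 in TH and above background on 2 GC arrays and on none of CC or OO. Of 5 endothelial markers 4 were highest in TH, with a summed level of 2.71 to 5.59 in TH, 0.152 to 0.423 in GC, 0.133 to 0.178 in CC and 2.91 to 4.43 in OO. Of 4 leukocyte markers 3 were highest in TH, with a summed level of 0.906 to 1.84 in TH, 0.146 to 0.899 in GC, 0.126 to 0.413 in CC and 0.905 to 1.18 in OO. The part of such cells in the TH level of COX4I2 was not tested.

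NDUFA4L2 was detected in every group and was highest in CC among the immature cells. It was at 0.51, 1.64, 0.80 and 1.24 on the CC arrays, at -3.97 to -3.35 in TH, at -3.75 to -2.77 in GC and at -5.72 to -4.26 in OO. The CC arrays lay above all others of the immature groups, with differences of -4.79 ± 0.34 for TH minus CC (adjusted p = 3.4e-08) and -4.23 ± 0.34 for GC minus CC (adjusted p = 2.7e-06). After IVM it was at 0.40, -0.99, 1.17 and -0.35, which was not called (-0.99 ± 0.45, adjusted p = 0.092). Its partner NDUFA4 was at 3.18 to 3.34 in CC and 3.69 to 3.99 in TH, 0.64 ± 0.23 higher in TH (adjusted p = 0.044). These gene values average both probes. Probe 1 was above background on all 4 CC arrays and on no array of TH, GC or OO, so the sizes given are not exact. Probe 2, above background on every array, had means of 5.32 in CC, -0.27 in TH, 0.33 in GC and -2.60 in OO. The other gene that was lower in GC than in CC was COX7A1 (-0.76 ± 0.18, adjusted p = 0.011), at 2.78 to 3.62 in GC and 3.82 to 4.25 in CC.

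Of the 37 complex I genes, 4 were lower in TH than in GC and 4 lower than in CC, fewer than the array-wide shares of 14.5% and 17.4% would give. NDUFS4, a subunit required for a stable NADH-oxidizing arm, was at 3.16, 2.88, 2.88 and 3.29 in TH, at 3.61 to 4.60 in GC and at 4.31 to 4.57 in CC, with differences of -1.18 ± 0.20 from GC (adjusted p = 0.00032) and -1.42 ± 0.20 from CC. NDUFAB1 was at 4.61 to 5.03 in TH, 5.65 to 6.11 in GC and 6.02 to 6.16 in CC, with differences of -1.04 ± 0.16 and -1.33 ± 0.16. NDUFV2 differed by -0.85 ± 0.15 and -0.83 ± 0.15, and NDUFC1 by -0.66 ± 0.16 and -0.79 ± 0.16. For these 4 genes TH did not overlap GC or CC. NDUFAF6 was also called lower in TH in both comparisons, UQCRFS1 against GC alone, and ATP5B and NDUFAF3 against CC alone, which does not show that the comparisons differ. Higher in TH were ATP5I (7.44 to 7.86 in TH, 6.52 to 7.06 in GC, 6.66 to 6.98 in CC, differences of 0.86 ± 0.17 and 0.81 ± 0.17) and COX6C (0.56 ± 0.16 and 0.63 ± 0.16). COX7A1 was higher than in GC (0.56 ± 0.18), and SDHD (0.67 ± 0.17), NDUFA4, NDUFAF2, COX7A2L and NDUFS5 were higher than in CC.

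The subunits encoded by the mitochondrial genome followed most nuclear ones in OO, with greater size, and had one exception. The array measured all 13 protein genes of that genome, which lie outside the name rule. The 12 others besides ND6 were lower in OO with a median difference of -2.66 and a range from -3.18 (ND5) to -2.10 (COX1). On single arrays the median level of these 12 genes was 4.31 to 4.57 in OO and 6.55 to 7.52 in TH, GC and CC, with no overlap. ND6 was the only one at a higher level in OO, with 1.39 ± 0.40 (adjusted p = 0.0061), though its OO arrays, at 0.42 to 1.19, overlapped those of GC, at -1.47 to 1.12. ND6 is the only protein gene transcribed from the light strand of that genome. In CC after IVM all 13 had higher levels than in CC, by 0.95 to 1.86, and 12 were called (ND4L had an adjusted p of 0.057). Values of these 13 genes were read with the reported scaling alone. The rises of the nuclear genes after IVM, given below, changed with the scaling. Of all genes 30.3% were called higher, with a median difference of 0.37, and IVM and slide 3 cannot be told apart. The median level of the 12 genes was 7.96 to 8.53 on the 4 arrays after IVM and 6.89 to 7.30 on the 4 CC arrays.

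**Figure D4:**
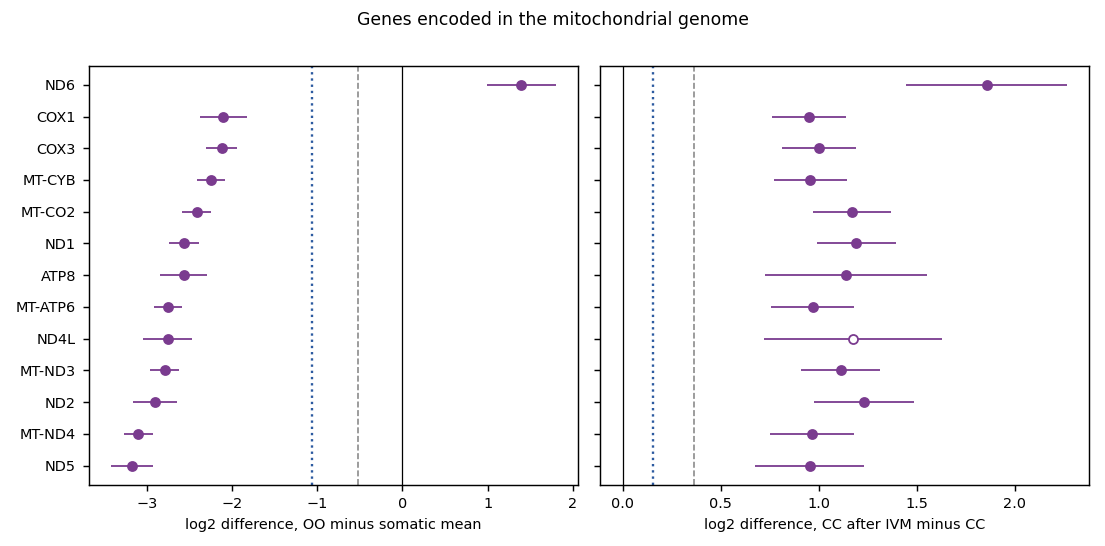
Points are log2 differences with standard errors for the 13 protein genes of the mitochondrial genome, filled where called, for OO minus the somatic mean on the left and for CC after IVM minus CC on the right. The dotted line is the median of the 81 nuclear subunit genes and the dashed line the median of all genes. In OO 12 genes lie between -3.18 and -2.10 and ND6 at 1.39, and after IVM all lie between 0.95 and 1.86. The values are those of the reported scaling alone.

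Other genes of mitochondrial function were counted from lists chosen with earlier results known, to be read against the 38.3% of all genes lower and 32.9% higher in OO. Their values were read with the reported scaling alone. Of 28 assembly factors outside the name rule, 11 were lower and 11 higher in OO, with a median difference of -0.01. Of 16 genes of pyruvate dehydrogenase and the citric acid cycle, 8 were lower and 3 higher. Among those higher was CS, citrate synthase, the first enzyme of the cycle (2.11 ± 0.16), at 5.94 to 6.48 in OO and 3.76 to 4.63 in the somatic cells. Of 7 genes that maintain mitochondrial DNA, 6 were higher in OO and 1, POLG, was lower. Of 14 regulators of mitochondrial gene expression, 7 were higher and 6 lower. The co-activator PPARGC1A was at -2.82 to -2.53 in OO and -7.44 to -5.55 in the somatic cells, where 4 TH, 2 CC and no GC arrays were above background, with a fitted difference of 3.80 ± 0.16. The transcription factor of the mitochondrial genome, TFAM, differed by -1.22 ± 0.14. Of 5 further subunit or chain genes (CYC1, CYCS, USMG5, MP68 and ATPIF1), 3 were lower and 1 higher.

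In CC after 4 h of IVM, 11 of the 92 genes were higher than in CC (background 30.3%) and 5 lower (background 15.5%). The median difference of the 92 genes was 0.15, against 0.37 over all genes. The arrays of CC after IVM were all on slide 3, which held no other group, so slide and IVM cannot be told apart in any of these values. In all 16 called genes the arrays of the 2 groups did not overlap. The genes were called on these same arrays, so the lack of overlap is no further support. The largest fall was in NDUFS1, which was at 0.36, 0.38, 0.49 and 0.38 in CC and at -0.79, -0.83, -0.98 and -0.76 after IVM, a difference of -1.24 ± 0.17 (2.37-fold, adjusted p = 0.00041). SDHAF1 was at 1.77, 1.90, 2.09 and 2.05 in CC and at 0.91, 1.35, 0.46 and 0.51 after IVM (-1.15 ± 0.23, adjusted p = 0.0047). NDUFAF7 (-0.85 ± 0.31), the iron-sulfur arm subunit NDUFS3 (-0.71 ± 0.18) and SDHA (-0.65 ± 0.17) were the others lower. NDUFS1, with the largest difference after IVM, was not called in OO.

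The 11 genes higher after IVM were NDUFB9, NDUFB2, NDUFB1, NDUFA2 and NDUFA6 of complex I, UQCRH of complex III, COX7C, COX7A2 and NDUFA4 of complex IV, and ATP5E and ATP5G3 of the ATP synthase. NDUFB9 was at 0.17, 0.18, 0.32 and 0.12 in CC and at 1.39, 1.21, 0.90 and 0.98 after IVM, a difference of 0.92 ± 0.18 (adjusted p = 0.0042). NDUFB2 was at 2.59 to 2.63 in CC and 3.30 to 3.54 after IVM (0.84 ± 0.16, adjusted p = 0.0036). COX7C differed by 0.89 ± 0.25, with 6.94 on replicate 1 and 5.92 to 6.24 on the other arrays after IVM, and UQCRH by 0.79 ± 0.27, with 7.81 and 6.63 to 7.27. The remaining 7 differed by 0.65 to 0.79. With the reported scaling, the only one read for it, CYCS was higher after IVM by 2.35 ± 0.18, at 3.42 to 3.83 against 1.03 to 1.32 in CC. The count of 16 called genes changed with the processing. It was 14 without replicate 1 of CC after IVM, which stood apart, and 7, 8, 8 and 9 without CC replicates 1, 2, 3 and 4. Set against the CC arrays of slide 1 alone it was 1, and against those of slide 2 alone 2. After quantile normalization 3 genes were higher and 10 lower, and in the deposited values 3 were higher and 25 lower, so that the balance between higher and lower is not settled. Of the 16 genes, 7 kept their call after quantile normalization and 8 with the deposited table, and in both cases no sign turned. NDUFS1 was called under all 15 alternatives, from -1.46 to -0.93.

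**Figure D5:**
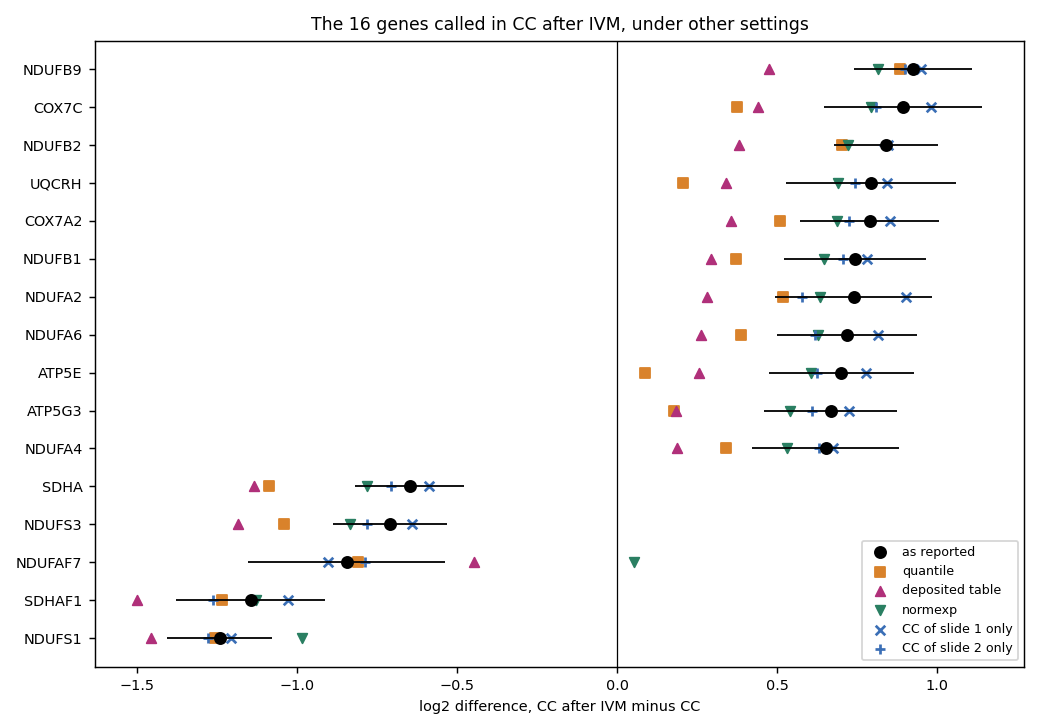
Points are the log2 difference, CC after IVM minus CC, of the 16 genes called, with the standard error on the reported value, and other symbols give the same difference under other scalings or with the CC arrays of 1 slide. NDUFS1 stays between -1.46 and -0.98 in all the settings drawn, while the 11 higher genes move towards 0 after quantile normalization and with the deposited table, and NDUFAF7 moves to 0.05 with normexp.

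Probes of the same gene did not always agree. In 8 of the 92 genes the somatic levels of the probes were over 5 from each other, so the level given for such a gene lies between its probes. In 10 of the 92 genes the OO differences of the probes were over 1 from each other. Probes called in opposite directions were found in 2 genes, COX7A2 (chr9:15041836-15046972) and NDUFA12 (chr5:24846225-24873123), the latter encoding a subunit of the complex I matrix arm:
COX7A2 probe 1: aaggccagacggtagttccggttccagcgt
COX7A2 probe 2: tgagttctttggggatcaatatttattgac
NDUFA12 probe 1: ttggaaactttctgtcgtcggctccctgcc
NDUFA12 probe 2: gacaacgaaaagcaatttacgtgtaaaata
Probe 1 of COX7A2 was higher in OO by 0.45 ± 0.15 and probe 2 lower by a difference of -0.37 ± 0.14. After IVM they moved together, by 0.78 and 0.79. Probe 1 of NDUFA12, above background on 3 of 4 OO arrays, gave 0.84 ± 0.34 in OO, and probe 2, above background on all, gave -0.66 ± 0.15. The gene values of 0.05 for COX7A2 and 0.09 for NDUFA12 are therefore averages of probes that differ.

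Some genes were also represented at more than 1 place in the genome, where a short copy carries nearly the same sequence as the gene. COX7C had transcripts on chr7:88648457-88650528, chr10:72298985-72299176 and chr19:21117462-21117982. Probes of the chromosome 7 and 10 transcripts overlapped by 49 bases with 1 mismatch, and those of chromosomes 7 and 19 by 32 bases with 1 mismatch, shown in capitals:
COX7C chromosome 7, probe 1: atagtaagacaccaactgctGaaaaagtaa
COX7C chromosome 10, probe 2: atagtaagacaccaactgctTaaaaagtaa
COX7C chromosome 7, probe 2: gtctcttaaaaggatcaatcccttgaaTtc
COX7C chromosome 19, probe 1: gtctcttaaaaggatcaatcccttgaaCtc
These probes gave OO differences of -1.41, -1.48, -1.52 and -1.51, and the array cannot tell such copies apart. The second probe of the chromosome 19 transcript gave -0.23 (adjusted p = 0.75). In 4 genes, 6 probe sequences were listed for more than 1 transcript. Among these were COX7B, with transcripts on chromosomes X, 17 and 7, and ATP5E, with transcripts on chromosomes 13 and 22. COX6B1 was listed only on chromosome 5, over 479 bases, and COX8A only on chromosome 20, over 448 bases. These spans are close to the 425 and 459 bases of COX7B on chromosomes 7 and 17. Whether the COX6B1 and COX8A entries are the genes or short copies was not tested.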

How the data were processed

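RNA of 20 samples was hybridized in 1 colour (Cy3) to Agilent bovine arrays of 61325 probes. The authors deposited scanner output of every array from Feature Extraction, version 10.7.3.1, with annotation on the UMD 3.1 assembly. As deposited, the intensity of a spot had its background removed, and arrays had not yet been normalized against one another. The authors also deposited 1 table of log2 values, which matched log2 of the median pixel signal minus the array median. Each column has a median of 0, and the steps behind it were not given in the sources used here. Whether a signal lay well above background was read from the deposited 0 or 1 marks.

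Outlier spots were left out. The array's 75th percentile was subtracted from log2 intensity, and the median over the spots of a gene was taken. Differences were tested with limma 3.58.1 (R 4.3.3, lmFit and eBayes) over 22550 genes with Benjamini-Hochberg adjustment at 0.05, in a fit of the 16 arrays of TH, GC, CC and OO and a fit of the 8 arrays of CC and CC after IVM. The labels number replicates, but do not say that they came from separate animals, so p-values measure the spread between these samples. Depth does not apply to arrays, and their number limits the precision. A level below background on all arrays of a group gave only a bound: the mean of the bright group was set against the mean, per array, of the higher of the lowest signal among probes above background and the gene's own signal. Named genes were the largest changes, those nearest to the median of a complex, tissue isoforms, core subunits and genes with discordant probes, and others named were chosen after their values were seen. One gene of the set is counted but not reported here by name. The genes and all lists were chosen with earlier results of these data known.

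The test was checked on simulated data with 200 changed genes of 22550. For OO against the somatic mean, 38.5% of changes of 1 log2 unit and 85.0% of changes of 2 were recovered, for TH against GC 32.5% and 83.0%, and for CC after IVM 0% and 79.0%. Far more genes were called in the data, 71.3% among the cell types and 45.8% after IVM. The adjustment is more lenient there, so these shares do not give the recovery of the fits. Alternatives were other scalings (array median, quantile, percentile of probes detected throughout), background correction by normexp with an offset of 50, the deposited table, the brightest probe, a mean over spots, a filter on dim genes, analysis of variance, slide or replicate number as a block, each slide alone and leaving out each array. The random slide block and the CC arrays of 1 slide were added after the data had been seen. Whether replicate numbers pair the samples was not given by the labels and was not settled. Deviations correlated from -0.272 to 0.440 in 24 same-numbered pairs of cell types (mean 0.0907, other pairs -0.0236). They correlated from -0.225 to -0.0392 in 4 pairs of CC and CC after IVM (mean -0.144, other pairs 0.0447). Same-numbered arrays of the cell types also shared a slide, so number and slide cannot be told apart there.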

Additional observations from a re-analysis of the deposited data

Results flagged for a closer look

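In groups of 4 arrays, a sample was singled out where its gap to the nearest other array exceeded Dixon's critical share of the group's range, which chance gives in about 1 of 20 groups. Of 260 gene and group combinations tested, 21 had such a sample: 6 in TH, 2 in GC, 2 in CC, 9 in CC after IVM and 2 in OO. All 9 in CC after IVM were high values of replicate 1, the array with the highest median of the set. Its log2 levels, with the range of the other 3 arrays, were 6.61 for ATP5A1 (5.88 to 5.94), 4.54 for ATP5O (3.24 to 3.43), 5.24 for COX5B (4.11 to 4.14), 0.75 for COX6B1 (-0.55 to -0.46) and 4.96 for COX7A1 (3.51 to 3.74). They were 4.51 for NDUFA4 (3.64 to 3.70), 0.48 for NDUFAF2 (-0.79 to -0.65), 4.93 for UQCRC1 (4.53 to 4.56) and 2.84 for UQCRC2 (1.80 to 1.98). Of these genes NDUFA4 was the one called after IVM, at a difference of 0.65.

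TH replicate 4 was high for COX4I1 at 5.16 (others 3.99 to 4.04), COX6B1 at 1.48 (others -0.38 to -0.25), NDUFA8 at 2.51 (others 1.61 to 1.65), NDUFV1 at 4.79 (others 4.501 to 4.55) and SDHB at 3.24 (others 1.53 to 1.62). TH replicate 2 was low for SDHA at 5.29 (others 5.40 to 5.41). GC replicate 2 was low for COX6A1 at 6.09 (others 6.93 to 6.999) and COX6B2 at 3.88 (others 4.91 to 5.06). In CC, replicate 1 was low for ATP5A1 at 5.74 (others 5.90 to 5.92) and replicate 3 high for NDUFS1 at 0.49 (others 0.36 to 0.38). OO replicate 1 was low for SDHA at 2.80 (others 3.41 to 3.46) and high for UQCRFS1 at -0.26 (others -0.73 to -0.67). The part of any single array in these values beyond the fits without it was not tested.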

How the results depend on the processing

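Leaving out 1 array at a time gave 73 to 79 genes differing among cell types, 60 to 64 lower and 12 to 18 higher in OO, 51 to 56 lower and 10 to 12 higher than each somatic type, 6 to 12 between TH and GC (6 without TH replicate 1), 12 to 20 between TH and CC, 2 to 3 between GC and CC, and 7 to 19 after IVM. The median OO difference then ranged from -1.08 to -0.96 and the IVM median from -0.01 to 0.27. With the deposited table, 24 genes were higher in OO, 35 lower and 21 higher than each somatic type, 4 differed between GC and CC and 28 after IVM, with medians of -0.39 in OO and -0.22 after IVM. Quantile normalization gave 4 genes between GC and CC and an IVM median of -0.13, the detected-probe percentile 28 between TH and CC, and normexp 31 after IVM. Slide 1 alone gave 5 genes higher than each somatic type and 1, 4 and 1 between TH and GC, TH and CC, and GC and CC, and slide 2 alone 5, 5 and 1. All 20 arrays in 1 fit gave 1 between GC and CC. After IVM, 40 genes were called with slide as a random block, where 67.9% of all genes were called. The correlation within slides in that fit was -0.261, and slide and IVM cannot be told apart. With the CC arrays of slide 1 alone 1 gene was called, and with those of slide 2 alone 2. The causes were not tested, beyond the fewer arrays of the single-slide fits.

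With the replicate number as a block, 75 genes differed among cell types, 62 were lower and 16 higher in OO, 12 differed between TH and GC, 16 between TH and CC and 2 between GC and CC, while 5 were called after IVM. Whether the numbers pair the samples is not known, so these values describe the fit only.

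Some single genes turned sign. In OO, COX7A2 (0.05) gave -0.17 with the detected-probe percentile, -0.37 with the brightest probe, -0.10 on slide 1 and -0.066 to 0.19 when leaving out 1 array. NDUFA12 (0.09) gave -0.13 with that percentile, -0.43 with normexp and -0.66 with the brightest probe. NDUFAF1 gave -0.65 with normexp, NDUFS1 -0.026 with the detected-probe percentile, and NDUFB9 (-0.18) 0.38 with the deposited table and 0.032 on slide 2. With the deposited table NDUFV1 gave 0.15, SDHAF1 0.31 and SDHC 0.26. After IVM, NDUFAF7 gave 0.051 with normexp. Signals near background limit COX4I2, COX6A2, ATP5SL, NDUFA10 and NDUFAF1, which were not above background on all arrays.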

Other observations

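Assembly factors outside the name rule moved in both directions in OO. BCS1L, TTC19 and LYRM7, which act in the assembly of complex III, were higher by 2.14 ± 0.17, 1.53 ± 0.12 and 1.91 ± 0.12, with no overlap between OO and somatic arrays. TMEM126B and ECSIT, of the complex that builds the membrane arm of complex I, were higher by 2.69 ± 0.13 and 2.30 ± 0.16. The copper chaperones of complex IV SCO1 and COX19 were lower, with differences of -3.06 ± 0.15 and -2.39 ± 0.13. In contrast, COA7 was higher by 3.11 ± 0.23, COX16 by 1.27 ± 0.12 and COX15 by 1.17 ± 0.16, and SCO2 was not called (-0.10 ± 0.14). TMEM70, an assembly factor of the ATP synthase, was lower with -2.21 ± 0.13, whereas ATPAF2 was higher by 1.63 ± 0.14.

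Among genes of mitochondrial DNA upkeep, POLG2, the accessory subunit of the mitochondrial DNA polymerase, was at 4.47 to 4.84 in OO and 0.87 to 1.28 in the somatic cells, a difference of 3.64 ± 0.11, while the catalytic subunit POLG gave -1.51 ± 0.12. After IVM, MGME1, a nuclease of mitochondrial DNA, was at -2.33 to -1.71 against 0.43 to 0.55 in CC (-2.45 ± 0.19). Of the citric acid cycle genes, SUCLA2 was at 1.26 to 1.79 after IVM against -1.02 to -0.73 in CC (2.28 ± 0.19), and the assembly factor ATPAF1 of the ATP synthase was lower (-2.35 ± 0.39). These values after IVM share the slide, which cannot be told apart from IVM, and were read with the reported scaling alone.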
